A study of Mus musculus with 20 samples.

Results

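The miR-30 family is represented here by 10 mature small RNAs, chosen by the family name: the 5p forms mmu-miR-30a-5p, mmu-miR-30b-5p, mmu-miR-30c-5p, mmu-miR-30d-5p and mmu-miR-30e-5p, and the 3p forms mmu-miR-30a-3p, mmu-miR-30c-1-3p, mmu-miR-30c-2-3p, mmu-miR-30d-3p and mmu-miR-30e-3p. The prefix for mouse is left off from here on. All 10 were found among the 1481 mature mouse miRNA names in the deposited tables. All 10 had a mean of at least 3 on the log2(CPM + 0.5) scale, where CPM is a read count scaled to the size of its library. The remaining arm, miR-30b-3p, was used only as the partner of miR-30b-5p in ratios of the arms and as a related entry.

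The libraries came from primary neurons of mouse cortex, taken at embryonic day 15 and cultured for 7 days. Neurons were wild type or knockout for ciRS-7 (Cdr1as), a circular RNA abundant in brain that carries many sites for miR-7. The strain field reads C57BL/6N-Cdr1asem1Nikr for every sample, wild type included. The medium was then changed and neurons spent 12 h either under OGD, that is oxygen-glucose deprivation, a model of ischaemia in culture, or under normoxia. OGD meant 1% O2 and a medium with no glucose or pyruvate added, while the normoxic medium held glucose (25 mM) and pyruvate (0.2 mM); CO2 was 5% and the temperature 37 °C in both. Small RNA was sequenced from 20 cultures, 5 biological replicates in each of 4 groups. ciRS-7 is not a mature miRNA and was not measured in these tables, so the knockout label was not checked here.

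A miRNA precursor folds into a hairpin whose stem is cut into a duplex of a 5p and a 3p strand. As a rule 1 strand is kept by an Argonaute protein as the guide and the other is lost faster. The guide finds messenger RNAs mainly through its seed, bases 2 to 8, and lowers their translation and stability. The miR-30 5p strands share their seed and are the usual guides of the family. Targets known for them include Becn1, which starts autophagy, and Snai1, a transcription factor of epithelial to mesenchymal transition. The family is broadly expressed, brain included, and which arm of miR-30e is kept varies between tissues.

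Sequences from RefSeq (GRCm38.p6) were matched by name for 7 of the 10 members. They are shown because the family splits by seed and because near-identical members could share reads. Each is 5′ to 3′ with the seed in capitals. miR-30b and miR-30d are given by name. The matched 5p forms, and miR-384-5p, which carries the same seed, were:
miR-30a-5p: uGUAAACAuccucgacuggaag
miR-30e-5p: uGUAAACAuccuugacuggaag
miR-30c-5p: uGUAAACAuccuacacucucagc
miR-384-5p: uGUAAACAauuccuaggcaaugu
The 3p forms fell into 2 seed groups:
miR-30a-3p: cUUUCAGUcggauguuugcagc
miR-30e-3p: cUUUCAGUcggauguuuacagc
miR-30c-1-3p: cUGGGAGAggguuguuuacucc
miR-30c-2-3p: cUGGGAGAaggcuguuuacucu
Of 1679 mature mouse entries in that table, 4 had the seed of miR-30a-5p, namely the 4 listed first; miR-30b and miR-30d are not covered by this count. Counted from 1 at the 5′ end, miR-30a-5p and miR-30e-5p differed by 1 substitution, C13U, and miR-30a-3p and miR-30e-3p by 1, G18A. The 2 miR-30c 3p forms differed by 3 (G9A, U12C and C22U). miR-30a-5p and miR-30c-5p differed at 5 of 22 positions. How reads that matched more than 1 of these forms were counted is not given in the sources used here, so levels of miR-30a and miR-30e in particular may hold reads of each other.

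The hairpins are shown because the results compare the levels of their arms. The capitals mark the mature strands, the 5p strand first:
Mir30a: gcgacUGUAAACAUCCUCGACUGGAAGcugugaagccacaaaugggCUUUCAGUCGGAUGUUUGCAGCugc
Mir30e: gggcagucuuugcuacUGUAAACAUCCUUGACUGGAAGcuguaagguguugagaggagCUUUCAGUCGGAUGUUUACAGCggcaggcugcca
Mir30c-1: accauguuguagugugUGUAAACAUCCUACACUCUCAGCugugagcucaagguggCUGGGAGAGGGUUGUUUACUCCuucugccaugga
Mir30c-2: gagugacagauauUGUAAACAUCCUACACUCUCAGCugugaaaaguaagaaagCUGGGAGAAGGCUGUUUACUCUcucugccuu
In the GENCODE annotation of GRCm38, Mir30a lies at chr1:23272269-23272339 on the plus strand with no host gene, and Mir30c-2 at chr1:23291701-23291784 on the plus strand in an exon of the long non-coding RNA Gm27028. Mir30c-1 (chr4:120769534-120769622) and Mir30e (chr4:120772606-120772697) lie on the minus strand in an intron of Nfyc, which encodes a subunit of the transcription factor NF-Y. Mir30b (chr15:68337415-68337510, no host gene) and Mir30d (chr15:68341208-68341289, in an exon of the long non-coding RNA Gm20732) are neighbours on the minus strand. The mature miR-30c-5p is the same sequence from both of its hairpins, so only its 3p forms tell Mir30c-1 from Mir30c-2.

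The libraries held 2492065 to 9117862 reads in wild-type normoxia, 1160582 to 4374002 in wild-type OGD, 5884616 to 12477032 in knockout normoxia and 1811589 to 3119212 in knockout OGD, so depth moved with treatment. The limit that a count of 0 allows, 3 reads, was worth 0.249 to 2.55 CPM, and this limit covers counting error only. The 7 neuronal markers were all present and summed to 315162 to 410180 CPM per library, most of it miR-9-5p. Single ones moved with treatment in either direction: in wild type miR-124-3p had a mean of 3392 CPM in normoxia and 5628 after OGD, miR-138-5p 233 and 454, and miR-128-3p 60839 and 40381. The 3 oligodendrocyte markers summed to 5.9 to 15.3 CPM, the 2 endothelial ones to 269 to 393, and the 5 of muscle and mesenchyme to 68.8 to 122 with ranges that overlapped between treatments. The 6 markers of microglia and blood summed to 148 to 169 CPM in wild-type normoxia, 167 to 227 after OGD, and 141 to 179 and 183 to 204 in the knockout; nearly all of it was miR-486a-5p (155 and 189 CPM on average in wild type), and miR-223-3p of myeloid cells had at most 2 reads in any library. The hypoxia-induced miR-210, as 2 strands, summed to 13.2 to 48.4 CPM in normoxia and 47.7 to 190 after OGD. The 2 markers of astrocytes and other glia, miR-21a-5p and miR-146a-5p, summed to 1649 to 2583 CPM in wild-type normoxia and 2448 to 3031 after OGD, and to 2137 to 2340 and 2501 to 3323 in the knockout; their part in the results below was not tested. In such bulk cultures fewer cells of a type and less RNA per cell cannot be told apart. Replicate 5 of wild-type normoxia stood apart on the first principal component, which held 83.0% of the variance of 423 abundant features: it scored -0.88, against -14.46 to -13.09 for the other 4 and 8.95 to 15.05 for wild-type OGD. The wild-type changes after OGD are therefore also given without it, after the shares within the family where not beside the value itself.

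In wild-type normoxia the most abundant member was miR-30c-5p, at 6074 ± 879 CPM (SD, n = 5), which placed it 26th of all features. It was followed by miR-30d-5p at 4682 ± 378 CPM and miR-30a-5p at 3366 ± 678 CPM, and that order held in 5 of 5 libraries although the ranges of neighbours overlapped. miR-30e-3p (958 ± 39.5 CPM) and miR-30a-3p (888 ± 12.8 CPM) came next, above miR-30b-5p (748 ± 145 CPM) and miR-30e-5p (714 ± 61.2 CPM), whose ranges overlapped. The other 3p forms were far lower, with miR-30c-2-3p at 95.2 ± 15.4, miR-30d-3p at 58.4 ± 5.76 and miR-30c-1-3p at 23.6 ± 2.02 CPM. The 5p forms together made up 1.54% of all CPM. A ranking between different miRNAs also carries the ligation and amplification preferences of the library kit.

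After OGD this order closed up at the top. In wild-type OGD, miR-30d-5p (5083 ± 513 CPM), miR-30a-5p (5010 ± 1049 CPM) and miR-30c-5p (4858 ± 302 CPM) had overlapping ranges, and miR-30b-5p (1276 ± 115 CPM) then stood above all 3p forms in every library. In knockout normoxia the means of the 10 members had the same order as in wild-type normoxia. In knockout OGD the top 3 again overlapped, at 5705 ± 602 CPM for miR-30c-5p, 5024 ± 367 for miR-30d-5p and 5023 ± 1163 for miR-30a-5p.

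**Figure D1:**
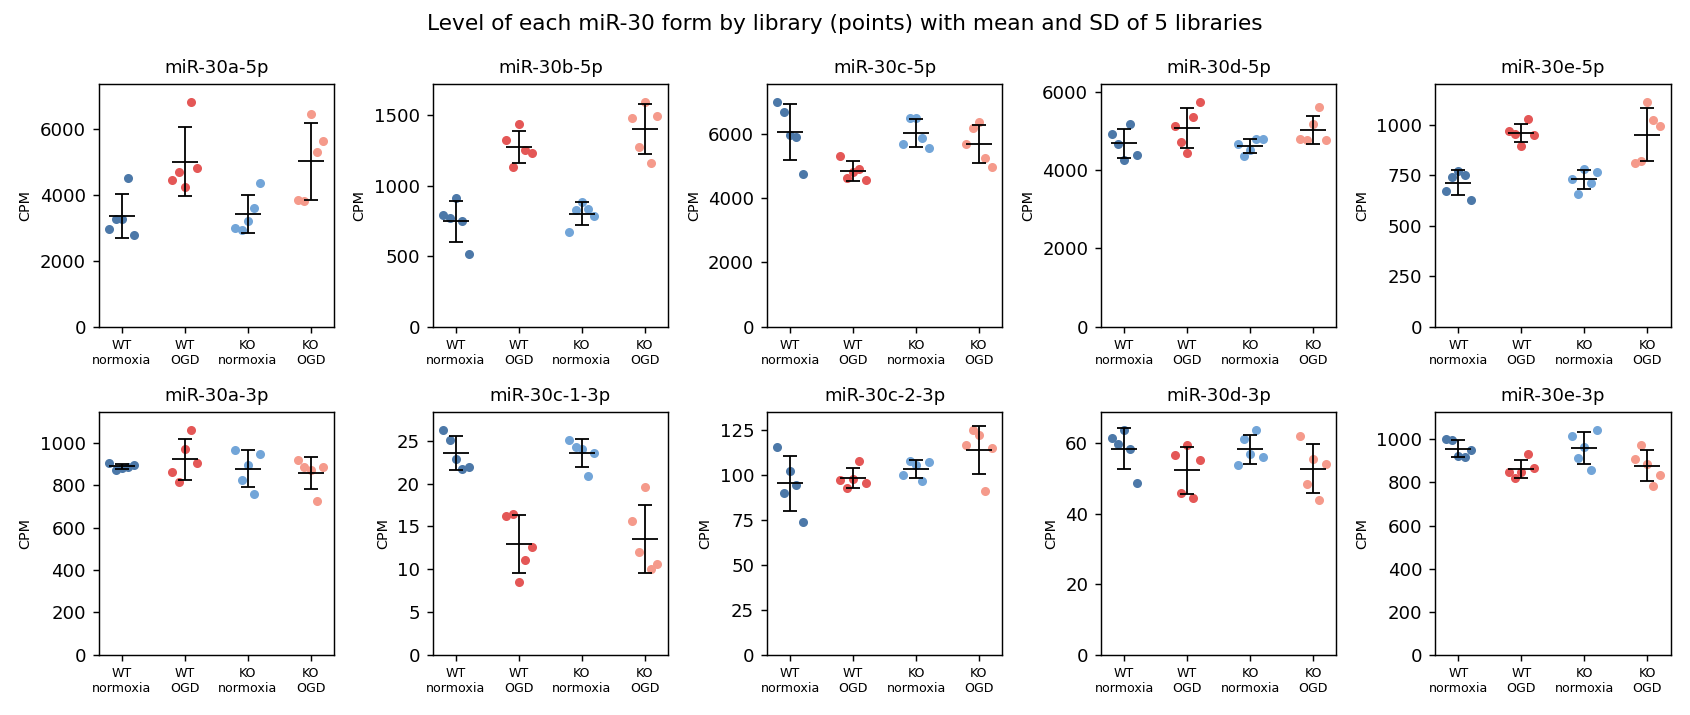
Level of each member in CPM (y axis, from 0, a different range in each panel) in the 4 groups, with 1 point per library and bars for the mean ± SD of 5 libraries. miR-30b-5p and miR-30e-5p lie higher and miR-30c-1-3p lower in every OGD library than in any normoxia library of the same genotype on the CPM scale, while centring takes the miR-30e-5p change below 0.

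The first comparison asked which members differed between OGD and normoxia in wild-type neurons. On the CPM scale, limma called 5 of the 10 members at a Benjamini-Hochberg adjusted p under 0.05 over all features: 3 5p forms were higher and miR-30c-5p and miR-30c-1-3p were lower. Of all 1478 features tested 23.1% were called, and of the 425 with a mean log2 of at least 3, as the members all have, 47.3%, so the members' share was close to that of features as abundant and says nothing particular about them. By direction, 18.7% of all features were called higher and 4.4% lower, and 33.9% and 13.4% of the abundant ones. The median log2 change was 0.05 over the 10 members and 0.22 over those 425 features. It was 0.43 over the 5 5p forms and -0.15 over the 5 3p forms.

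These levels depend on how libraries are scaled, and the split of calls moved with it. Against 3 higher and 2 lower on the CPM scale, centring each library on its median gave 0 higher and 7 lower in wild type, quantile normalisation 3 and 5, and TMM factors (an alternative chosen after seeing the data) 0 and 5. The calls over all features moved too: 7.31% were higher and 17.9% lower with centring, 9.54% and 12.9% with quantile normalisation and 10.7% and 9.74% with TMM factors. In the knockout the CPM scale gave 3 members higher and 1 lower, centring 1 and 7, quantile normalisation 3 and 4, and TMM factors 1 and 5. There the shares of all features were 7.57% and 21.9%, 9.53% and 12.6%, and 11.2% and 12.2%, in the same order. Centring shifted all features by 0.56 in wild type and 0.51 in the knockout on the log2 scale, and with TMM factors the median over the 10 members was -0.35 and -0.30. Ratios of arms and shares within the family, given further on, are unchanged by centring or TMM factors, which multiply a whole library by 1 factor, and were not computed under quantile normalisation, which does not.

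On the CPM scale miR-30b-5p had the largest change among the 5p forms. With centring the changes of miR-30c-5p and miR-30d-5p were larger in size in each genotype, and with TMM factors that of miR-30c-5p was larger in wild type. miR-30b-5p stood at 795, 768, 914, 750 and 514 CPM in replicates 1 to 5 of wild-type normoxia and at 1322, 1130, 1442, 1254 and 1233 CPM after OGD. Knockout libraries held 671, 829, 886, 833 and 782 CPM in normoxia and 1478, 1279, 1597, 1163 and 1493 CPM after OGD. Every OGD library lay above every normoxia library in each genotype. The log2 change was 0.79 ± 0.13 (SE; limma adjusted p = 1.5e-04) in wild type, 0.66 without replicate 5 of wild-type normoxia, and 0.81 ± 0.10 (limma adjusted p = 1.3e-05) in the knockout. It remained higher under the other scalings, but at 0.23 (adjusted p = 0.21) with centring and 0.39 (adjusted p = 0.063) with TMM factors in wild type, and at 0.30 (adjusted p = 0.036) and 0.46 (adjusted p = 0.0031) in the knockout.

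miR-30e-5p, made from the Nfyc intron, stood at 674, 742, 773, 753 and 627 CPM in wild-type normoxia and at 971, 955, 898, 1028 and 951 CPM after OGD. The knockout values were 732, 658, 780, 711 and 767 CPM in normoxia and 810, 821, 1116, 1024 and 992 CPM after OGD. The groups did not overlap in either genotype, and replicates 1 and 2 of knockout OGD lay closest to normoxia. On the CPM scale the log2 change was 0.43 ± 0.10 (limma adjusted p = 0.0024) in wild type and 0.38 ± 0.10 (limma adjusted p = 0.0085) in the knockout, while centring turned it to -0.13 in each genotype and TMM factors left 0.03 in each, none of the 4 called. Without replicate 5 of wild-type normoxia the wild-type change on the CPM scale was 0.39.

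miR-30a-5p, 1 base away from miR-30e-5p, stood at 2975, 3276, 3275, 4519 and 2784 CPM in wild-type normoxia and at 4460, 4690, 4234, 6844 and 4822 CPM after OGD. Replicate 4 was the highest in each of these groups, and 1 normoxia library reached into the OGD range. Among knockout libraries it was at 3009, 2943, 3216, 3601 and 4360 CPM in normoxia and at 3862, 3809, 6475, 5315 and 5655 CPM after OGD, again with overlap, replicates 1 and 2 of OGD being the low ones. The log2 change was 0.57 ± 0.14 (limma adjusted p = 0.0050) in wild type and 0.54 ± 0.14 (limma adjusted p = 0.011) in the knockout. With centring it was 0.01 and 0.03 and with TMM factors 0.17 and 0.19, none of them called. The knockout call also missed the threshold in 4 of 10 fits that each left out 1 library (replicates 1 and 2 of normoxia, 3 and 4 of OGD), with adjusted p up to 0.065, and with thinned libraries, in which reads were drawn at random down to the depth of the shallowest library (0.56, adjusted p = 0.074).

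miR-30c-5p went the other way in wild type. It stood at 7024, 6709, 5979, 5909 and 4751 CPM in normoxia and at 5334, 4638, 4834, 4915 and 4567 CPM after OGD, a log2 change of -0.31 ± 0.10 (limma adjusted p = 0.036). Only replicate 5 of normoxia lay within the OGD range; without it the change was -0.40 (adjusted p = 0.0016), whereas leaving out 8 of the other 9 libraries in turn (all but replicate 1 of OGD) took the adjusted p above the threshold, up to 0.11. With thinned libraries the change was also -0.31, with an adjusted p of 0.059. Knockout neurons held 6039 ± 446 CPM under normoxia against 5705 ± 602 CPM under OGD, a log2 change of -0.09 ± 0.08 (limma adjusted p = 0.52). With centring it was called lower in each genotype, at -0.87 in wild type and -0.60 in the knockout. With TMM factors it was called lower in each genotype as well. miR-30d-5p, the neighbour of miR-30b on chromosome 15, changed by 0.12 ± 0.09 in wild type and 0.12 ± 0.07 in the knockout and was not called, while centring turned it to -0.44 and -0.39, both called, and TMM factors to -0.29 and -0.23, neither called.

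Among the 3p forms, the usual passenger strands, miR-30c-1-3p was the only one called on the CPM scale. It stood at 26.3, 25.1, 22.9, 21.7 and 21.9 CPM in wild-type normoxia and at 16.2, 16.5, 8.5, 11.1 and 12.5 CPM after OGD. For knockout neurons the values were 25.1, 24.3, 24.0, 20.8 and 23.6 CPM in normoxia and 15.6, 12.0, 19.5, 10.1 and 10.6 CPM after OGD. No OGD library reached the normoxia range of its genotype. The log2 change was -0.87 ± 0.20 (limma adjusted p = 0.0029) in wild type and -0.82 ± 0.18 (limma adjusted p = 0.0022) in the knockout, and it was lower under every scaling tried. These OGD values rest on 10 to 66 reads a library in wild type and 19 to 49 in the knockout. With all libraries thinned to 1160582 reads the change was -0.92 (adjusted p = 0.015) in wild type and -0.68 (adjusted p = 0.20) in the knockout.

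The other 3p forms were not called in either genotype on the CPM scale. miR-30e-3p changed by -0.15 ± 0.09 in wild type and -0.13 ± 0.08 in the knockout, and miR-30d-3p by -0.16 ± 0.14 and -0.15 ± 0.12. miR-30a-3p changed by 0.05 ± 0.10 and -0.03 ± 0.09, and miR-30c-2-3p by 0.06 ± 0.13 and 0.13 ± 0.10. With centring all 5 3p forms, miR-30c-1-3p included, were called lower in each genotype. With TMM factors 4 of them were, and miR-30c-2-3p, at -0.34 in wild type and -0.21 in the knockout, was not.

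In the knockout the same test called 4 of the 10 members on the CPM scale, 3 higher (miR-30a-5p, miR-30b-5p and miR-30e-5p) and miR-30c-1-3p lower. All 4 were also called, in the same direction, in wild type. Of all 1479 features 24.5% were called in the knockout (18.8% higher, 5.75% lower) and, of 420 with a mean log2 of at least 3, 53.6% (36.9% higher, 16.7% lower). The median log2 change was 0.04 over the members and 0.20 over those 420 features. miR-30b-5p, miR-30e-5p and miR-30c-1-3p were the members whose OGD and normoxia libraries did not overlap in either genotype, where 35.3% of abundant features did not overlap in wild type (27.3% higher, 8.0% lower) and 44.8% in the knockout (33.6% higher, 11.2% lower).

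**Figure D2:**
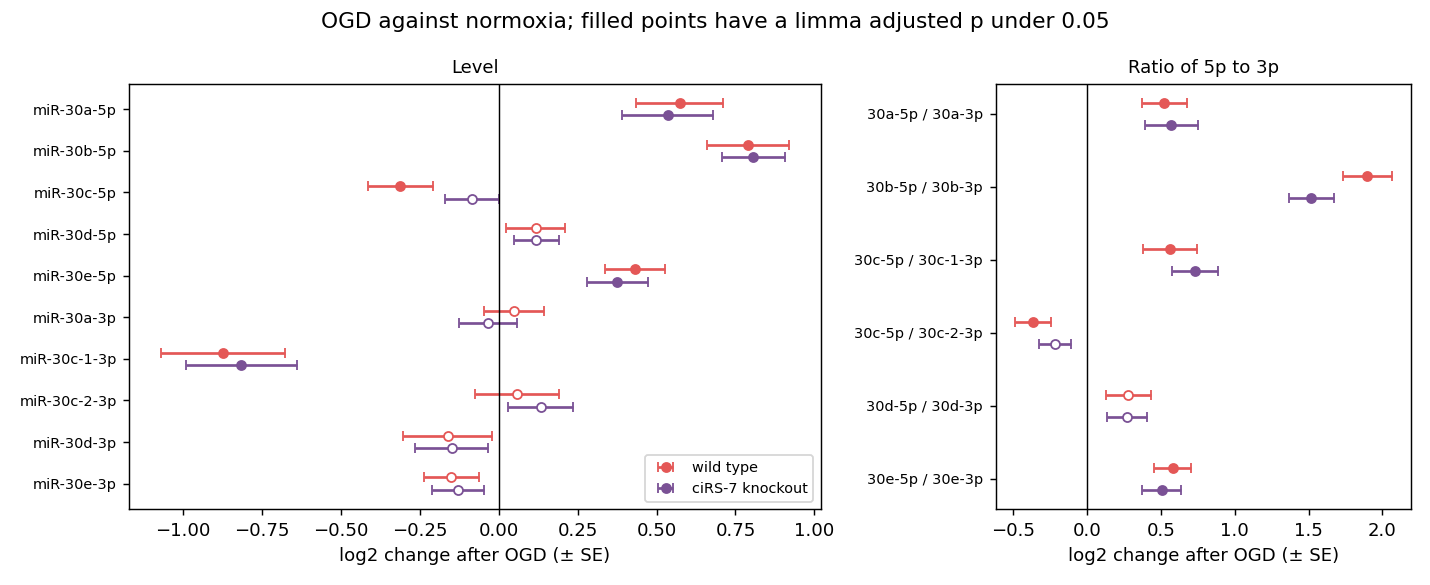
Log2 change after OGD with its SE (x axis) for the level of each member on the CPM scale (left) and for the ratio of the 5p to the 3p strand (right), in wild type and knockout; filled points had a limma adjusted p under 0.05. 5p strands lie to the right of their own 3p strands except for miR-30c-5p with miR-30c-2-3p; level changes move with the scaling (centring takes miR-30e-5p and miR-30d-5p below 0), while a factor per library leaves the ratios as they are.

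The ratio of a 5p to a 3p strand is taken within a library and so does not change when the library is multiplied by a factor. For miR-30c each 3p form was set against miR-30c-5p, which pools both hairpins. Those 2 of the 6 pairs therefore also carry the balance between the hairpins. After OGD in wild type it was called in 5 of the 6 pairs, against 64.5% of 121 pairs of arms in all, of which 37.2% were called higher and 27.3% lower. The 5p strand gained on the 3p strand in 4 pairs and lost in 1. In the knockout 4 of 6 were called, all with a gain of the 5p strand, against 68.6% of 118 pairs, 40.7% higher and 28.0% lower. Changed arm ratios were thus common among all miRNAs here.

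The miR-30b pair changed most. The 5p strand made up 93.7%, 93.4%, 94.2%, 93.3% and 91.2% of both arms in wild-type normoxia and 97.5%, 97.9%, 98.5%, 98.2% and 98.2% after OGD. The knockout share went from 93.6% ± 0.73 to 97.6% ± 0.50 (SD, n = 5), and the groups did not overlap in either genotype. The log2 ratio of 5p to 3p changed by 1.90 ± 0.16 (limma adjusted p = 1.2e-07) in wild type and 1.52 ± 0.15 (limma adjusted p = 4.4e-07) in the knockout. Its 3p strand fell from 53.5 ± 2.39 to 24.9 ± 5.28 CPM in wild type (log2 change -1.11 ± 0.16, limma adjusted p = 3.1e-05; -1.14 without replicate 5 of normoxia), and knockout neurons had 54.5 ± 2.55 CPM before and 33.9 ± 8.91 CPM after (-0.71 ± 0.15, limma adjusted p = 0.0020), on 25 to 139 reads a library after OGD.

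For miR-30e the more abundant strand changed. In wild-type normoxia the 5p strand made up 40.2%, 42.7%, 45.5%, 45.1% and 39.8% of both arms, so that the 3p strand was the more abundant in 5 of 5 libraries. After OGD it made up 53.3%, 53.8%, 51.4%, 52.5% and 52.3%, above 50% in 5 of 5. The groups did not overlap. The log2 ratio rose by 0.58 ± 0.13 (limma adjusted p = 0.0010), and by 0.54 without replicate 5 of normoxia.

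In the knockout the 5p share of miR-30e was 41.8%, 41.8%, 44.8%, 45.3% and 42.4% in normoxia and 47.1%, 45.8%, 55.7%, 56.6% and 54.2% after OGD. These groups did not overlap either, but the share passed 50% in 3 of 5 OGD libraries, replicates 1 and 2 staying below. The log2 ratio rose by 0.50 ± 0.13 (limma adjusted p = 0.0037). The 5p and 3p strands of miR-30e carry different seeds, GUAAACA and UUUCAGU.

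For miR-30a, whose strands carry the same seeds as those of miR-30e, the 5p strand was the more abundant in all 20 libraries. It made up 76.7%, 79.0%, 78.8%, 83.6% and 75.6% of both arms in wild-type normoxia and 83.8%, 85.2%, 81.3%, 86.6% and 84.2% after OGD; the groups overlapped through replicate 4 of normoxia. Knockout libraries had 75.7%, 78.1%, 78.3%, 82.6% and 82.1% in normoxia and 80.8%, 81.2%, 88.1%, 88.0% and 86.4% after OGD, with replicates 1 and 2 of OGD inside the normoxia range. The log2 ratio rose by 0.52 ± 0.15 (limma adjusted p = 0.0076) in wild type and 0.57 ± 0.18 (limma adjusted p = 0.011) in the knockout. The replicates of knockout OGD that lay lowest for miR-30a also lay lowest for miR-30e.

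Since reads of miR-30a and miR-30e could be exchanged in counting, their strands were also summed, an alternative chosen after seeing the data. The log2 ratio of the summed 5p to the summed 3p reads was 1.13 ± 0.26 (SD, n = 5) in wild-type normoxia and 1.73 ± 0.18 after OGD, a change of 0.60 with an exact two-sided permutation p of 0.016, adjusted over the 4 comparisons 0.063. The knockout change was 0.59, from 1.17 ± 0.21 to 1.76 ± 0.39, with an exact permutation p of 0.048, adjusted 0.095. The sizes were close to those of the separate pairs, but neither passed the threshold after adjustment. The separate pairs were tested with limma over all pairs of arms, so their calls and these p-values cannot be set against each other. Whether exchange of reads between the pair changed with OGD was not tested.

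miR-30d stayed almost wholly 5p, at 98.8% ± 0.15 in wild-type normoxia and 99.0% ± 0.19 after OGD, and its ratio was not called (0.28 ± 0.15, limma adjusted p = 0.12, in wild type and 0.27 ± 0.14, adjusted p = 0.091, in the knockout). It was called without replicate 3 of wild-type OGD (0.37, limma adjusted p = 0.031) and without replicate 1 of knockout OGD (0.34, limma adjusted p = 0.040). For miR-30c the 2 pairs moved in opposite directions. The ratio of miR-30c-5p to miR-30c-1-3p rose by 0.56 ± 0.18 (limma adjusted p = 0.014) in wild type and 0.73 ± 0.15 (limma adjusted p = 6.4e-04) in the knockout. The ratio to miR-30c-2-3p fell by 0.37 on the log2 scale in wild type (SE 0.12, limma adjusted p = 0.014), and its value in the knockout was -0.22 ± 0.11 (limma adjusted p = 0.090; -0.27 and 0.043 without replicate 4 of OGD, 0.045 with a replicate block). With libraries thinned to 1 depth, the fall in wild type (adjusted p = 0.11) and the rise in the knockout (adjusted p = 0.059) missed the threshold.

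**Figure D3:**
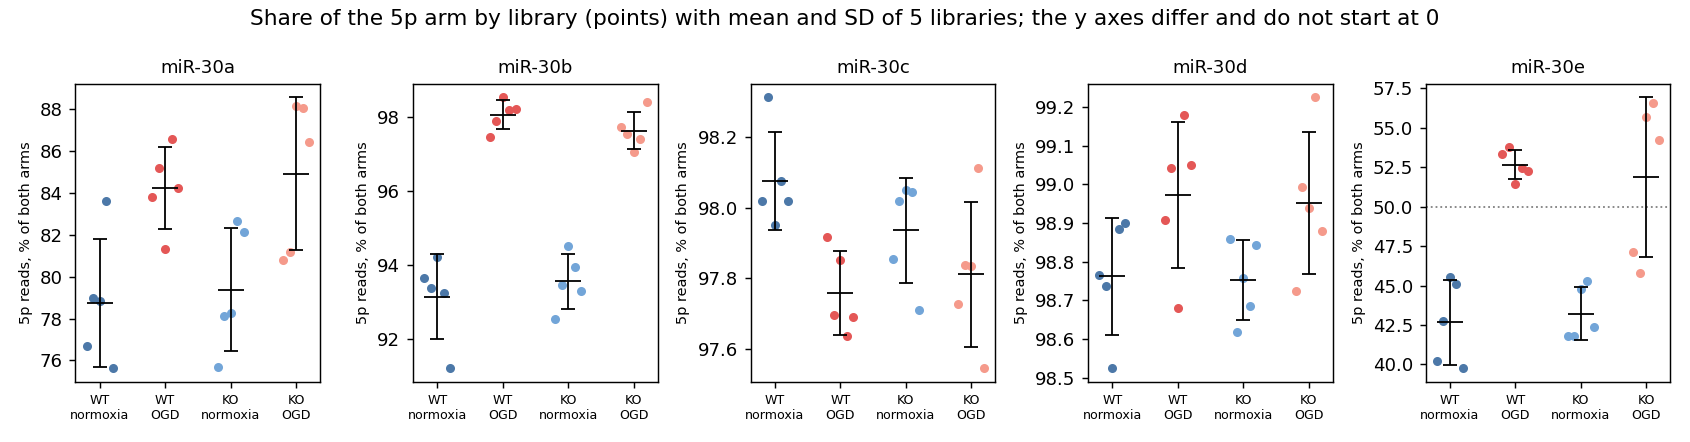
Reads of the 5p strand as a percentage of both strands (y axis, which does not start at 0 and differs between panels) for each miR-30 hairpin in the 4 groups, with 1 point per library and bars for the mean ± SD of 5 libraries; the miR-30c panel sums both of its 3p forms. In the miR-30e panel the dotted line is 50%: all 10 normoxia libraries lie below it, all 5 wild-type OGD libraries and 3 of 5 knockout OGD libraries above.

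The 2 hairpins that give miR-30c-5p can be told apart by their 3p strands. miR-30c-1-3p, from the Nfyc intron, made up 20.04% ± 2.12 (SD, n = 5) of the 2 3p forms in wild-type normoxia and 11.7% ± 3.05 after OGD, with ranges of 18.3% to 22.8% and 8.0% to 15.1%. The knockout values were 18.6% ± 0.90 and 10.6% ± 2.24, with ranges of 17.8% to 20.1% and 8.4% to 13.8%. The groups did not overlap in either genotype, and the exact two-sided permutation p was 0.0079 in each, the smallest that 5 against 5 libraries can give, adjusted over 4 comparisons 0.016. The balance between the 3p strands of Mir30c-1 and Mir30c-2 therefore shifted towards Mir30c-2 after OGD in both genotypes. Mir30e lies in the same intron as Mir30c-1, and its own 3p strand was not called on the CPM scale, at -0.15 and -0.13, but was called lower with centring, at -0.71 and -0.64.

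The 5 5p forms, the usual guides of the family, were also summed; miR-384-5p, which has the same seed, was not included. The sum stood at 16393, 16169, 15191, 17102 and 13060 CPM in wild-type normoxia and at 17203, 16143, 15859, 19409 and 17323 CPM after OGD, which overlapped. The log2 difference was 0.14 (exact permutation p = 0.15, adjusted over 4 comparisons 0.30), and 0.08 without replicate 5 of normoxia (adjusted exact permutation p = 0.36). Knockout neurons stood at 14769, 15308, 15909, 15805 and 16285 CPM in normoxia and at 16647, 16871, 20766, 18358 and 17895 CPM after OGD, with no overlap. That was 1.16-fold, or 0.21 on the log2 scale (exact permutation p = 0.0079, adjusted 0.032), but the value was -0.13 (adjusted p = 0.27) with TMM factors and -0.30 (adjusted p = 0.011) with centring. In wild type these scalings gave -0.26 (adjusted p = 0.25) and -0.42 (adjusted p = 0.011). The direction of the family's total therefore differed between scalings. Without any 1 of the 5 knockout normoxia libraries the log2 difference on the CPM scale was 0.19 to 0.23. The adjusted exact permutation p was then 0.063 to 0.095.

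Within that pool the composition changed. The share of miR-30c-5p among the 5 5p forms was 42.8%, 41.5%, 39.4%, 34.6% and 36.4% in wild-type normoxia and 31.0%, 28.7%, 30.5%, 25.3% and 26.4% after OGD. The groups did not overlap, and the mean fell by 10.5 percentage points (exact permutation p = 0.0079, adjusted over 20 tests 0.040). The shares of miR-30b-5p, from 4.79% ± 0.77 to 7.47% ± 1.00, and of miR-30e-5p, from 4.60% ± 0.37 to 5.60% ± 0.23, rose with the same p-values. Without any 1 of the 5 OGD libraries these 3 calls had adjusted p of 0.053 to 0.063. The share of miR-30a-5p was 21.5% ± 3.04 in normoxia and 29.0% ± 3.72 after OGD (exact permutation p = 0.016, adjusted 0.053, or 0.032 without replicate 4 of normoxia), and that of miR-30d-5p 30.2% ± 2.12 and 29.6% ± 2.19 (adjusted p = 0.78).

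In the knockout miR-30b-5p was the form whose share was called, rising from 5.12% ± 0.43 to 7.77% ± 0.96 (exact permutation p = 0.0079, adjusted 0.040). Without any 1 of the normoxia libraries the rise was 2.50 to 2.76 percentage points, with adjusted exact permutation p of 0.053 to 0.063. The share of miR-30c-5p was 38.6%, 42.6%, 41.0%, 37.2% and 34.3% in normoxia and 34.2%, 36.7%, 30.8%, 28.6% and 27.8% after OGD. These ranges overlapped through replicate 2 of OGD, and the difference of -7.08 percentage points had an adjusted exact permutation p of 0.053. Shares sum to 100%, so a rise of 1 form lowers the others. With miR-30c-5p taken out of the sum, 0 shares were called in either genotype, the lowest adjusted exact permutation p being 0.063, for miR-30d-5p. Its share of the other 4 forms differed by -8.08 percentage points in wild type and -7.53 in the knockout. The exact test of 5 against 5 libraries cannot go below 0.0079 before adjustment. A result of 0 calls here therefore does not show that the other shares stayed alike.

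Without replicate 5 of wild-type normoxia, limma called the same 5 members and the same 5 arm ratios. On the CPM scale the log2 change was then 0.51 for miR-30a-5p and -0.90 for miR-30c-1-3p, the called members not given without it above. Of the uncalled members, miR-30c-2-3p had -0.03 in place of 0.06 and the other 4 kept their sign. The ratio of the arms changed by 1.80 for miR-30b, 0.46 for miR-30a, and 0.50 and -0.37 for miR-30c with miR-30c-1-3p and miR-30c-2-3p. The share of miR-30c-1-3p among both 3p forms differed by -7.68 percentage points (exact permutation p = 0.0079 over 126 splits), and the summed ratio of miR-30a and miR-30e by 0.54 (exact permutation p = 0.016). Among the 5p forms the shares of miR-30c-5p (-11.2 percentage points), miR-30b-5p (2.47) and miR-30e-5p (1.05) were called as before, and that of miR-30d-5p was 0.30 in place of -0.56, neither called.

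**Figure D4:**
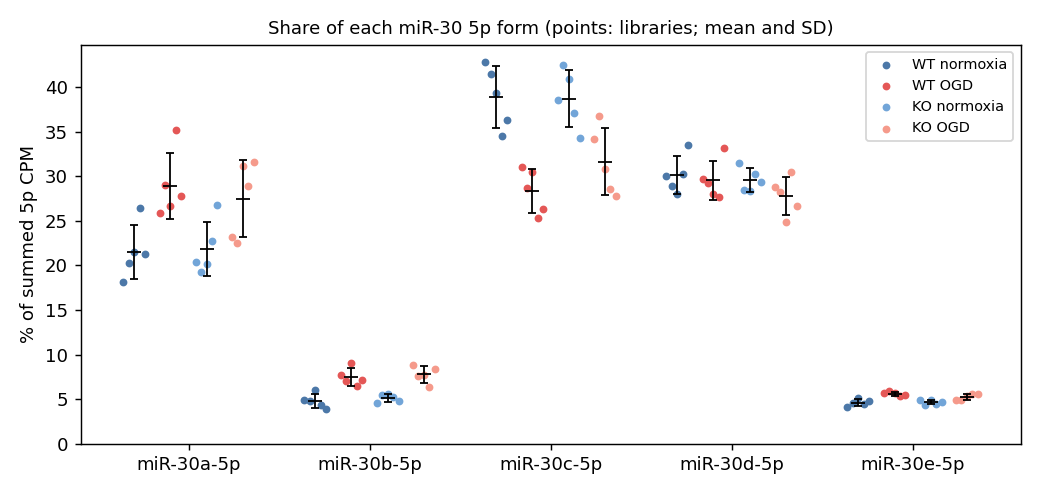
Share of each 5p form in the summed CPM of the 5 5p forms (y axis, percent, from 0), with 1 point per library and bars for the mean ± SD of 5 libraries in each of the 4 groups. The miR-30c-5p share is 38.9% in wild-type normoxia and 28.4% after OGD, while miR-30b-5p goes from 4.79% to 7.47%.

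Entries related to the family were read for comparison. miR-384-5p, which is made on the X chromosome and has the miR-30 seed, stood at 180 ± 29.9 CPM in wild-type normoxia and 188 ± 19.2 CPM after OGD (log2 change 0.07 ± 0.14, limma adjusted p = 0.72). Without replicate 5 of normoxia that value was -0.04, and with centring it was -0.49 and called. Knockout levels were 183 ± 24.7 and 231 ± 33.6 CPM (0.34 ± 0.12, limma adjusted p = 0.051; -0.17 with centring). Its 3p strand was more abundant, at 356 ± 46.4 CPM in wild-type normoxia, and the arm ratio of miR-384 was not called in either genotype (-0.15 and 0.09 on the log2 scale; -0.18 in wild type without replicate 5 of normoxia). miR-30f, annotated opposite the 3p strand of Mir30e on the other DNA strand, with bases 1 to 7 equal to the miR-30 seed, was at 136 ± 34.8 CPM in wild-type normoxia and 97.9 ± 9.84 CPM after OGD (-0.44 ± 0.15, limma adjusted p = 0.044). Replicate 5 of normoxia was its highest library, at 195 CPM. Without it the change was -0.30 (limma adjusted p = 0.075), and the call held in 1 of 10 fits that each left out 1 library, that without replicate 1 of normoxia. Knockout neurons had 134 ± 34.1 CPM and, under OGD, 83.1 ± 12.7 CPM (-0.66 ± 0.16, limma adjusted p = 0.0051), a call that held in 10 of 10 such fits but not with thinned libraries (-0.59, adjusted p = 0.067).

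The next comparisons asked whether loss of ciRS-7 moved the family. In normoxia 0 of the 10 members were called by limma, where 0.0% of 1481 features were called and 47 features, none of them a member, had an unadjusted p under 0.05. The members' log2 differences between knockout and wild type ran from -0.02 to 0.13, and their 95% intervals reached from 0.83-fold to 1.32-fold. Without replicate 5 of wild-type normoxia the differences ran from -0.08 to 0.04, again with 0 members called. That of miR-30b-5p was then -0.01 in place of 0.12. After OGD 0 members were again called, with 0.0% of 1481 features, and 1 of the 108 features with an unadjusted p under 0.05 was a member. The differences ran from -0.11 to 0.23, with intervals from 0.74-fold to 1.46-fold.

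The member with the low unadjusted p after OGD was miR-30c-5p. It stood at 5334, 4638, 4834, 4915 and 4567 CPM in wild type and at 5693, 6196, 6401, 5253 and 4983 CPM in the knockout, a log2 difference of 0.23 ± 0.09 with a 95% interval of 0.05 to 0.41 (limma adjusted p = 0.47), and the groups overlapped. On the deposited values as they stand, in which extremes are pulled in, miR-30c-5p (adjusted p = 0.038) and miR-30c-2-3p (adjusted p = 0.012) were called higher in the knockout, where that setting called 1.55% of 1481 features higher and 3.31% lower. Arm ratios gave 0 of 6 calls between genotypes in normoxia, against 1.69% of 118 pairs, and 0 of 6 after OGD, against 0.0% of 126 pairs. No share within the pool was called, and the summed 5p level differed by 0.01 in normoxia and 0.07 after OGD on the log2 scale (adjusted exact permutation p = 0.94 and 0.48). After OGD that difference was 0.18 with TMM factors, 0.16 with centring and 0.02 to 0.12 with each library left out in turn, lowest without replicate 3 of the knockout and highest without replicate 4 of wild type, none of them called.

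Whether the OGD change itself differed between genotypes was tested as an interaction over all 20 libraries. limma called 0 of the 10 members, where 0.0% of 1481 features were called and 74 features, none of them a member, had an unadjusted p under 0.05. The largest difference was that of miR-30c-5p, 0.23 ± 0.13 on the log2 scale with a 95% interval of -0.05 to 0.50 (limma adjusted p = 0.99). Without replicate 5 of wild-type normoxia it was 0.31 (limma adjusted p = 0.39). The call of miR-30c-5p on the CPM scale in wild type and not in the knockout was therefore not shown to be a difference between genotypes. Of the arm ratios 0 of 6 were called against 0.0% of 120 pairs, the largest difference being -0.38 ± 0.23 for miR-30b, with a 95% interval of -0.86 to 0.10, and -0.04 with thinned libraries. The wild-type and knockout changes, which share no library, are given side by side above.

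By a fixed rule, the features most like the summed 5p level were sought among 411 abundant features outside the family. Over the 20 libraries these were miR-19b-3p (Pearson r = 0.93 between log2 levels), miR-301a-3p (0.87) and miR-152-3p (0.87). The summed level itself ranged only from 13060 to 20766 CPM. The libraries fall into treatment groups and share their scaling, so these values describe likeness in this set and carry no test.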

How the data were processed

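Small RNA libraries of 4 groups of 5 were read from 6 tables, 1 per pair of groups, that the authors deposited. The labels' protocols give TRIzol extraction, DNase treatment and a NEBNext small RNA kit with size selection; the genome build was mm10, per the submitters' processing notes. The aligner and the counting of shared reads are not given in the sources used here. The deposited values are a score: from the values, each is a whole read count times a library factor, raised to a power common to a table, with the extremes of each group of 5 pulled in at the quantiles 0.16 and 0.84. Undoing this gave whole reads (within 0.05) for 100% of values, and the same reads in all 59070 comparisons between tables; unless extremes were restored, 73.5% to 75.4% came out whole. No value column was left unmapped to a sample.

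CPM was computed on each library's effective size. Levels were tested with limma 3.58.1 (R 4.3.3; eBayes with trend, two-sided) on log2(CPM + 0.5), each comparison on its 10 libraries, with p-values adjusted by Benjamini-Hochberg over every feature tested and a threshold of 0.05; fold changes are on that scale. Arm ratios were tested likewise over all pairs with a mean log2 of at least 3 in both arms. Summed levels and shares had exact permutation tests over 252 splits. Groups and replicate numbers came from the labels. Replicates differed beyond sampling noise (lowest chi-square per degree of freedom 16.5). Recovery and fits were tested on simulated data. The members and lists were chosen with earlier results of these data known. Members were all named; related entries were named by seed or arm, and 3 more by likeness. Alternatives were deposited values, pseudocounts, filters, scalings, voom, thinning, a replicate block and leaving out each library.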

Additional observations from a re-analysis of the deposited data

Results flagged for a closer look

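Among 84 groups of 5 values checked, 3 had a highest or lowest library whose gap to its neighbour, divided by the range of the group, was above Dixon's critical value of 0.71; chance gives about 1 in 20 such groups. miR-30a-5p stood at 4519 CPM in replicate 4 of wild-type normoxia, where the next library was at 3276 CPM, and at 6844 CPM in replicate 4 of wild-type OGD, where the next was at 4822 CPM. miR-30a-3p stood at 723 CPM in replicate 4 of knockout OGD, below the next library at 872 CPM. Outside these 3, miR-30b-3p stood at 34.2 CPM in replicate 1 of wild-type OGD. The next library of that group was at 24.1 CPM and the lowest at 21.2 CPM. Leaving out any 1 library kept the wild-type call of miR-30a-5p after OGD (log2 change 0.45 to 0.68, limma adjusted p up to 0.037).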

How the results depend on the processing

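Against 5 members called in wild type, quantile normalisation called 8 (22.5% of all features); against 4 in the knockout, centring called 8 (29.5%), quantile normalisation 7 (22.1%) and thinned libraries 2 (14.9%). Between genotypes after OGD, deposited values called 2 members (4.86% of all features) and the other settings 0. Centring turned wild-type changes of miR-30a-3p to -0.51, miR-30c-2-3p to -0.50, miR-30d-5p to -0.44 and miR-30e-5p to -0.13, and knockout changes of miR-30c-2-3p to -0.38, miR-30d-5p to -0.39 and miR-30e-5p to -0.13. Quantile normalisation gave -0.53 and -0.32 for miR-30c-2-3p in wild type and knockout, and TMM factors -0.35 for miR-30a-3p in wild type. TMM factors also took miR-30d-5p (-0.29 and -0.23) and miR-30c-2-3p (-0.34 and -0.21) below 0 in wild type and knockout, none of them called. The summed 5p change was -0.26 in wild type and -0.13 in the knockout with TMM factors, and -0.42 and -0.30 with centring, which also gave -0.030 between genotypes in normoxia. The cause was not tested. With miR-30c-5p left out of the sum, 0 shares were called in wild type and 0 in the knockout. The smallest p of that exact test, 0.0079 before adjustment, limits what it can call.

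Leaving out each library in turn gave 4 to 5 members called in wild type and 3 to 4 in the knockout, 0 to 4 shares called in wild type and 0 to 1 in the knockout, a summed 5p change of 0.08 to 0.18 in wild type and 0.16 to 0.24 in the knockout, and a summed difference between genotypes in normoxia of -0.054 to 0.043. The calls of miR-30b-5p, miR-30e-5p and miR-30c-1-3p and of the arm ratios of miR-30a, miR-30b, miR-30e and miR-30c with miR-30c-1-3p held in all 10 such fits of each genotype.

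Same-numbered replicates did not all deviate together (correlations of -0.17 to 0.66 in wild type and -0.21 to 0.49 in the knockout), and not every library matched its own number best. With a replicate block, 5 and 4 members were called as without it, 5 arm ratios in the knockout in place of 4, and the summed 5p change in the knockout was 0.21 with an adjusted p of 0.25, since sign flips of 5 pairs cannot go below 0.0625. The edgeR and DESeq2 fits were not run, and the recovered whole reads were used with limma voom and TMM factors instead. Deposited values gave no interaction, as their tables are on separate scales. Depth limits miR-30c-1-3p and miR-30b-3p most, at 10 to 66 and 25 to 139 reads after OGD.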
